A study of Mus musculus with 8 samples.

Results

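The cells described here were mature neutrophils from the spleen, set against mature neutrophils from the blood of the same tumor-bearing mouse cohort. A cell was taken as a mature neutrophil where S100a8 and S100a9, the calprotectin genes that neutrophils carry in very large amounts, made up at least 3% of its RNA molecules (unique molecular identifiers, UMIs), where the immature granule genes Camp, Ngp and Ltf made up less than 0.2%, and where no UMI of Csf1r, the receptor of monocytes and macrophages, was found. Of 20012 cells in the series, 6487 of spleen and blood met these conditions and 6214 of them also carried a single hashtag, a barcoded antibody that marks the cells of 1 source. These 6214 cells were 2096 of the 6105 spleen cells and 4118 of the 7763 blood cells. Because the members were chosen by measured RNA, the genes of the rule are described and no test of them is read.

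Neutrophils are made in the bone marrow, leave it when they are mature, circulate for a short time and stay in marginated pools, of which the spleen is one. Their traffic is known to depend on the opposing chemokine receptors Cxcr2 and Cxcr4, on integrins, and on granulocyte colony-stimulating factor (G-CSF), whose receptor Csf3r signals through Stat3. In animals with tumors, neutrophils gather in the spleen, where they meet lymphocytes, red pulp macrophages and aged red cells.

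All mice were female C57BL6/J animals with a subcutaneous tumor grown from injected MOPC cells, a mouse oropharyngeal carcinoma line. The label of every library names both WT and a knockout line (Genotype_02) without naming the gene, and no label ties a hashtag to a genotype, so spleen and blood were compared over both genotypes together and the knockout itself could not be checked. Blood was drawn from the heart and freed of red cells by a longer lysis than the spleen, which was minced and pressed through a filter. The sort kept living Gr1+ cells negative for NK1.1, FcRe, Ter119, B220 and CD3, and living Gr1- cKit+ cells. Each tissue gave 1 RNA library and 1 antibody library, so tissue, preparation and library cannot be told apart. Unless no pairing is stated, the p-values below measure how much the difference between spleen and blood varied over the 8 hashtag numbers. The tie of barcode suffix 3 to the spleen library and of suffix 1 to the blood library rests on the library numbers in the labels. The labels say that hashtags marked mouse, organ and condition, and hashtags of the same number were treated as pairs, although no label gives the hashtag of each mouse.

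Each hashtag held 155 to 440 mature neutrophils in the spleen and 277 to 909 in the blood, and their summed UMIs ran from 475382 to 1252852 in the spleen and from 859179 to 2621100 in the blood. Mature neutrophils made up 32.0% to 45.8% of a hashtag's spleen cells and 52.5% to 66.9% of its blood cells, which describes the sorted sample. A median cell held 2861.5 UMIs and 1184 genes in the spleen, against 2932.5 UMIs and 1177 genes in the blood. Csf3r was found in 99.8% of the spleen cells (95% exact binomial interval 99.4 to 99.9) and 99.9% of the blood cells (99.7 to 99.96), and Cxcr2 in 98.0% (97.3 to 98.6) and 97.5% (96.9 to 97.9), so the cells carried the markers of their name in both tissues. These binomial intervals, and those below, treat cells as independent and leave out the spread between hashtags, so they do not test the tissues. S100a8 and S100a9 together made up a median of 12.5% of a spleen cell's UMIs and 15.5% of a blood cell's. S100a8 ran from 55997 to 74251 CPM (UMIs of the gene, scaled to the same fixed total of UMIs in every sum) in the spleen and from 69512 to 88327 CPM in the blood. At the edges of the rule, 126 spleen cells and 132 blood cells lay between 3% and 4%, and 111 and 143 cells between 2% and 3% were left out. The condition on Csf1r removed 906 cells in the spleen and 1462 in the blood. Camp, the cathelicidin gene of immature neutrophils, ran from 25.2 to 125 CPM in spleen sums and from 1.90 to 5.82 CPM in blood sums, below the limit of the rule in both. A small number of cells stood apart from the rest by depth, or by hemoglobin, azurophil granule or MHC class II RNA: 28 in the spleen and 35 in the blood. They had 10000 or more UMIs, under 1000 UMIs, or at least 1% of UMIs from hemoglobin genes. The other limits were 0.2% of UMIs from Elane, Mpo, Prtn3 and Ctsg, and 0.2% from Cd74, H2-Aa, H2-Ab1 and H2-Eb1. Lower levels of these genes without those cells follow in part from that choice. The spleen and blood libraries shared 13 cell barcodes among all their cells and 6 among the members.

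Of 7155 genes tested, 1319 (18.4%) were higher and 600 (8.39%) lower in spleen neutrophils, 26.8% in either direction, by edgeR's quasi-likelihood test on the 16 sums with the hashtag number as a block and an adjusted p under 0.05. The counts include 4 genes of the rule, 2 in each direction, from which nothing is read. Without the cells that stand apart, 1427 genes (20.2%) were higher and 713 (10.1%) lower. The median log2 fold change of all tested genes was 0.09. The balance of the calls depended on the scaling: 68.7% of the called genes were higher with total UMIs as library size, 52.3% with TMM factors and 49.0% with DESeq2. Fold changes below are therefore read against a middle that lay slightly above 0. Counts of called genes in a list are read against the shares over all tested genes, 18.4% higher and 8.39% lower.

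**Figure D1:**
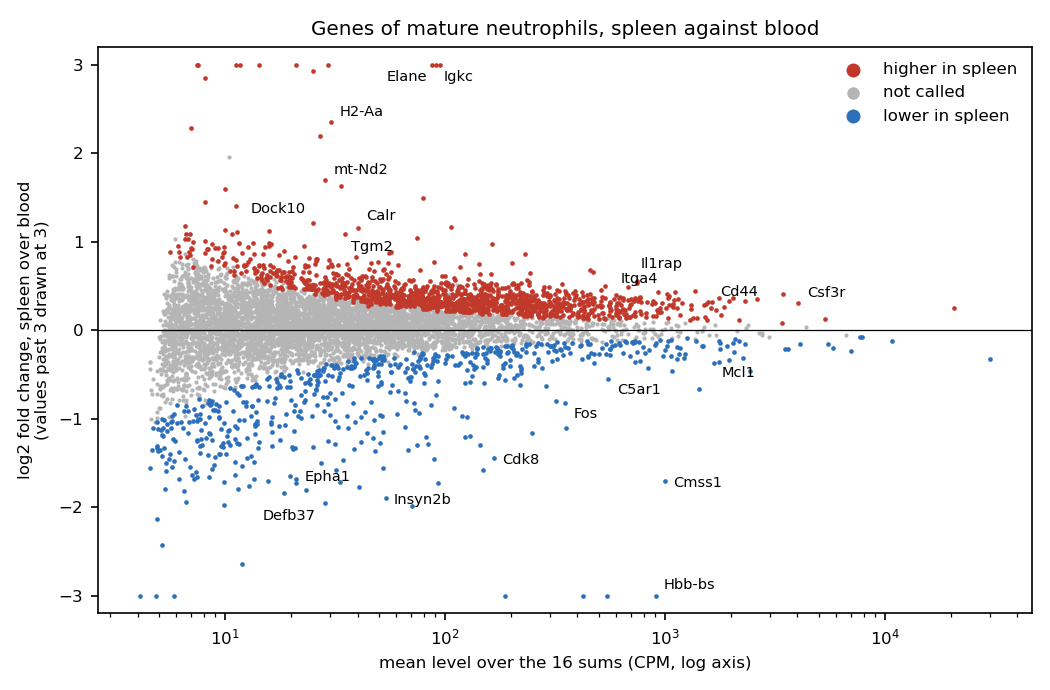
Each point is 1 of the 7155 tested genes, leaving out the 4 tested genes of the rule. The axes give its mean level over the 16 sums in CPM on a log axis and its log2 fold change, spleen over blood. Red points are higher and blue points lower in spleen neutrophils at an edgeR adjusted p under 0.05, and values past 3 are drawn at 3. The counts of 1319 higher and 600 lower include 2 genes of the rule in each direction that are not drawn.

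In spleen neutrophils, 7 of 18 tested G-CSF and GM-CSF signalling genes rose (38.9% against 18.4% of all tested genes) and 1 fell (5.56% against 8.39%). Their median log2 fold change was 0.16 beside 0.09 for all tested genes. Csf3r, the G-CSF receptor, ran from 4066 to 4830.4 CPM in the spleen with a median of 4480.1, against 3429 to 3906 CPM in the blood with a median of 3587. The groups did not overlap, and the log2 fold change was 0.31 ± 0.03 (SE, edgeR adjusted p = 4.32e-09, higher in 8 of 8 hashtags). Stat3, which carries the receptor's signal to the nucleus, ran from 396 to 541 CPM in the spleen (median 480.3) and from 331 to 383 CPM in the blood (median 354), again without overlap, and rose by 0.43 ± 0.05 (edgeR adjusted p = 1.57e-07). Jak2, a kinase of cytokine receptors, rose by 0.34 ± 0.07 in 7 of 8 hashtags (edgeR adjusted p = 0.00079). Csf2ra, the alpha chain of the GM-CSF receptor, went the other way: it ran from 111 to 175 CPM in the spleen (median 169) and from 192 to 248 CPM in the blood (median 205), and fell by 0.42 ± 0.07 in the spleen without overlap (edgeR adjusted p = 3.4e-05). Mature neutrophils of the bone marrow held less Csf3r than either, at 1748 ± 163 CPM (SD over 8 hashtags).

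Of 25 tested genes of adhesion and traffic 10 rose (40% against 18.4% of all tested genes) and 1 fell (4% against 8.39%), with a median of 0.23 against 0.09 for all tested genes. With TMM factors 9 rose and 1 fell, and with DESeq2 7 rose and none fell. Cd44, the hyaluronan receptor, ran from 1695 to 1934 CPM in the spleen (median 1823) and from 1292 to 1579 CPM in the blood (median 1456), a log2 fold change of 0.32 ± 0.03 without overlap (edgeR adjusted p = 7.93e-08). Itgam, which codes for the alpha chain of the integrin Mac-1, ran from 670.2 to 827 CPM in the spleen (median 764) and from 559.9 to 650.3 CPM in the blood (median 583) and rose by 0.34 ± 0.04 (edgeR adjusted p = 8.53e-07). Itgal, the alpha chain of LFA-1, rose by 0.36 ± 0.04 (edgeR adjusted p = 5.75e-07), with 667 to 835 CPM in the spleen and 482 to 698 CPM in the blood. Itga4, the alpha chain of the integrin VLA-4 that binds Vcam1, ran from 591 to 768 CPM in the spleen (median 679.5) and from 419 to 603 CPM in the blood (median 515), and rose by 0.39 ± 0.04 (edgeR adjusted p = 1.85e-07). Both overlapped between the tissues, yet all 8 hashtags were higher in the spleen. Marrow neutrophils held 146 ± 38.6 CPM of Itga4, below all spleen and blood sums. Itga5, a fibronectin receptor chain named after its values were seen, had 41.5 to 74.9 CPM in the spleen, 27.7 to 43.1 CPM in the blood, and a log2 fold change of 0.70 ± 0.12 (edgeR adjusted p = 6.79e-05). Arhgap15, a Rac GTPase-activating protein that restrains neutrophil migration, rose by 0.35 ± 0.03 (edgeR adjusted p = 2.37e-09).

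Cxcr2, which draws neutrophils toward CXC chemokines, ran from 1699 to 2026 CPM in the spleen (median 1838) and from 1495 to 1638 CPM in the blood (median 1565), and rose by 0.23 ± 0.03 without overlap (edgeR adjusted p = 1.44e-05). Cxcr4, the receptor for the marrow chemokine Cxcl12 that rises as neutrophils age, ran from 207 to 286 CPM in the spleen (median 235) and from 158 to 234 CPM in the blood (median 205). It rose by 0.30 ± 0.07 in 7 of 8 hashtags (edgeR adjusted p = 0.00105), and over the 23 alternatives its adjusted p ran from 1.25e-05 to 0.0618, the highest with DESeq2. Icam1, an integrin ligand chosen after its values were seen, had a low level of 4.00 to 25.2 CPM in the spleen and 1.58 to 10.5 CPM in the blood, and rose by 1.14 ± 0.33 although only 5 of 8 hashtags were higher (edgeR adjusted p = 0.0112). The call of Icam1 was lost with DESeq2, without hashtag 3 and with a stricter S100 limit, and its adjusted p over the alternatives ran from 0.000139 to 0.274. The gene of the traffic and adhesion list that fell was Ccr2, a monocyte chemokine receptor, with 16 UMIs in the spleen and 97 in the blood, 17 of them in 1 cell.

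**Figure D2:**
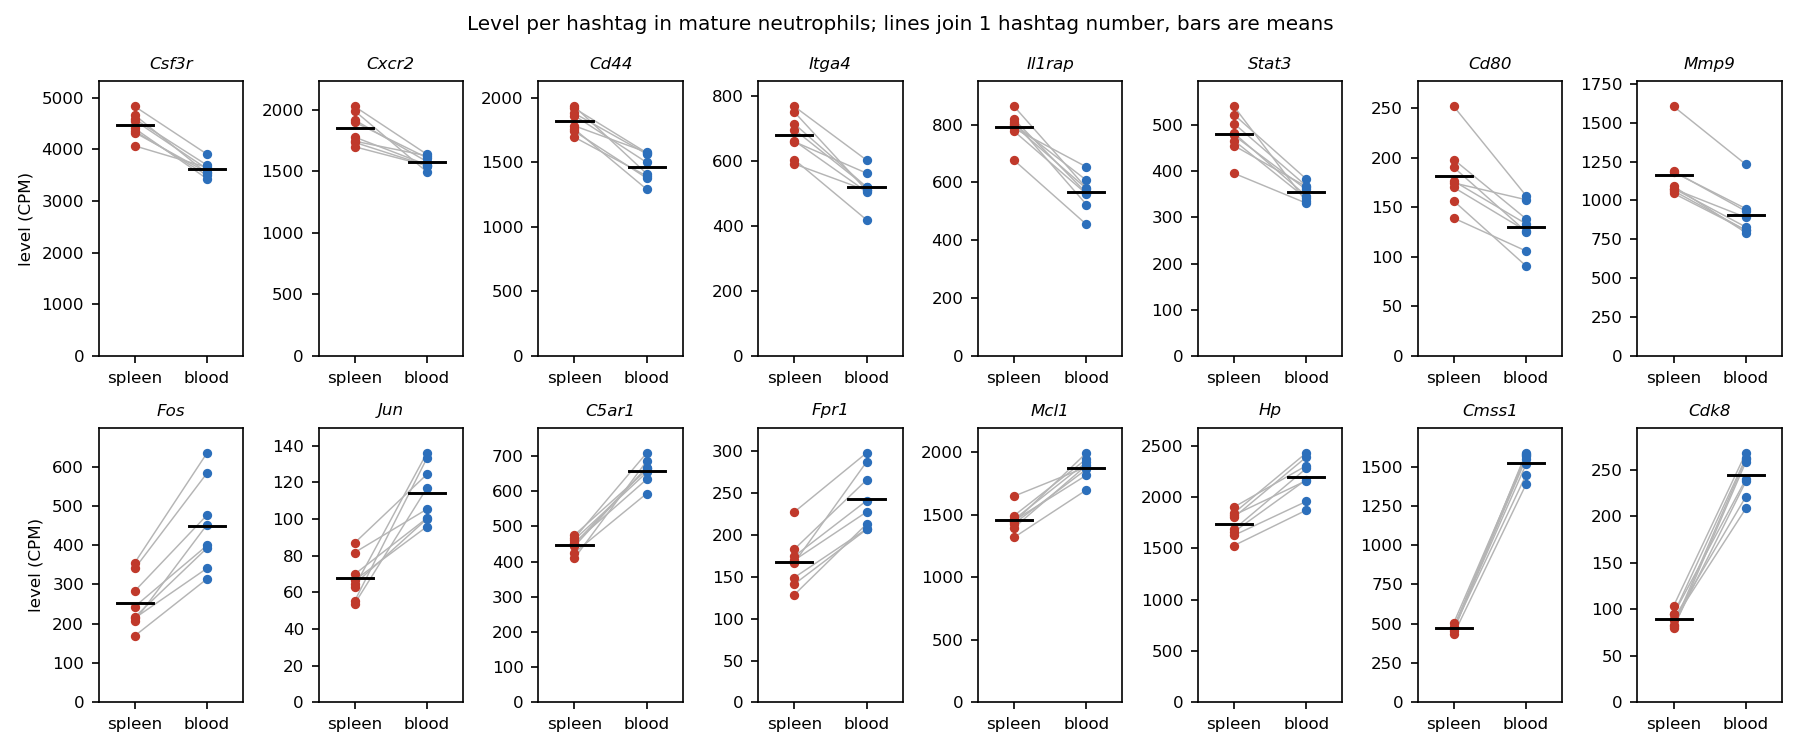
Level in CPM of 16 genes in the 8 spleen sums and the 8 blood sums, with lines that join sums of the same hashtag number and bars at the means. The upper genes, from Csf3r to Mmp9, are higher in the spleen in all 8 hashtags and the lower genes, from Fos to Cdk8, are lower in all 8.

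Of 13 tested receptors for attractants 2 rose and 2 fell, and their median of 0.07 was -0.01 with TMM factors. C5ar1, the receptor for the complement fragment C5a, ran from 409.9 to 476 CPM in the spleen (median 452) and from 594 to 709 CPM in the blood (median 664). The groups were far apart, and C5ar1 fell by 0.56 ± 0.04 on the log2 scale (edgeR adjusted p = 1.47e-10). Fpr1, the receptor for formylated bacterial peptides, ran from 129 to 227 CPM in the spleen (median 168) and from 207 to 298 CPM in the blood (median 234), overlapping, and fell by 0.55 ± 0.06 in 8 of 8 hashtags (edgeR adjusted p = 1.93e-07). C5ar2, the other C5a receptor, was named after its values were seen and rose by 0.27 ± 0.07 (edgeR adjusted p = 0.00513), but its adjusted p over the alternatives ran from 0.000952 to 0.195, the highest with DESeq2.

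Pattern receptors and their adaptors moved both ways. Tlr4, the endotoxin receptor, ran from 123 to 179.9 CPM in the spleen (median 144) and from 92.0 to 132 CPM in the blood (median 114) and rose by 0.40 ± 0.08 (edgeR adjusted p = 0.000434). Its partner Cd14 did not pass the test (0.32 ± 0.13, edgeR adjusted p = 0.0662). Pycard, the inflammasome adaptor ASC, fell by 0.95 ± 0.19 (edgeR adjusted p = 0.000477), with 5.66 to 18.9 CPM in the spleen and 15.9 to 31.9 CPM in the blood. Nlrp12, an inhibitory NOD-like receptor of neutrophils, rose by 0.30 ± 0.04 (edgeR adjusted p = 9.31e-06), and its adjusted p ran from 2.99e-09 to 0.112 over the alternatives, the highest among cells without a UMI of other cell types. Of 19 tested Toll-like receptor and inflammasome genes 6 rose and 2 fell, and the median of 0.00 was -0.07 with TMM factors. Clec4d, a C-type lectin that recognises mycobacterial and fungal glycolipids, ran from 1222 to 1496 CPM in the spleen and from 949.9 to 1167 CPM in the blood and rose by 0.30 ± 0.03 without overlap (edgeR adjusted p = 1.8e-07). Among 24 tested Fc and complement receptors 8 rose and 8 fell (33.3% each, against 18.4% and 8.39% of all tested genes). Their median of 0.01 was -0.07 with TMM factors. With DESeq2, 2 of them rose and 9 fell.

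Immediate early genes, which cells switch on within minutes of a stimulus, were mostly lower in spleen neutrophils. Of 19 tested, 11 fell (57.9% against 8.39% of all tested genes) and 1 rose (5.26% against 18.4%). Their median log2 fold change was -0.19, or -0.27 with TMM factors. The promoter stretches of 4 of these genes, 120 bases up to the annotated start from RefSeq (GRCm38.p6), are shown because AP-1 family genes are known to respond through elements such as the TGACG core bound by CREB and ATF proteins. They are Fos at chr12:85473770-85473889 on the plus strand, Junb at chr8:84978749-84978868 on the minus strand, Atf3 at chr1:191183334-191183453 on the minus strand, and Nr4a1 at chr15:101266726-101266845 on the plus strand. Capitals mark TGACG on either strand.
Fos: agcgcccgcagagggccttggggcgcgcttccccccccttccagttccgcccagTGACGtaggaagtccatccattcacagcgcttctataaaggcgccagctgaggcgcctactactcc
Junb: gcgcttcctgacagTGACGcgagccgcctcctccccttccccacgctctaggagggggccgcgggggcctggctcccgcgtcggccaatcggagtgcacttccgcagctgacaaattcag
Atf3: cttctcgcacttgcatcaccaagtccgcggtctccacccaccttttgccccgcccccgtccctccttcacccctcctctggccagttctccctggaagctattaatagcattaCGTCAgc
Nr4a1: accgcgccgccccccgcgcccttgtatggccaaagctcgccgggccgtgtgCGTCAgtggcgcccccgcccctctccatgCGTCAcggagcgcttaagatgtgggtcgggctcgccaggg
Of the 10 lower genes found in the promoter table, 5 had the motif in any of their promoters (Fos, Fosb, Junb, Atf3 and Btg1). Counted per promoter and not per gene, it was present in 3829 of all 32851 (11.7%), so these shares cannot be compared. Nr4a1, which rose, held 2 matches, and immediate early genes that were not called were not counted. A match describes the letters of the window and shows no binding.

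Fos, a subunit of the transcription factor AP-1, ran from 169 to 355 CPM in the spleen (median 230.4) and from 314 to 634 CPM in the blood (median 426). The ranges overlapped, but within every hashtag the spleen was lower, and Fos fell by 0.82 ± 0.05 (edgeR adjusted p = 4.99e-12). Jun, its partner, named after its values were seen, ran from 53.8 to 87.0 CPM in the spleen and from 95.9 to 136 CPM in the blood without overlap, and fell by 0.73 ± 0.10 (edgeR adjusted p = 3.72e-06). Jund fell by 0.35 ± 0.04 (edgeR adjusted p = 2.06e-07), also without overlap, at 620.1 to 705 CPM in the spleen and 767 to 917 CPM in the blood. Junb, whose promoter is printed above, fell by 0.25 ± 0.04 (edgeR adjusted p = 1.39e-05). Ier2, an early response regulator, ran from 145 to 196 CPM in the spleen and from 237 to 270.5 CPM in the blood without overlap and fell by 0.50 ± 0.06 (edgeR adjusted p = 4.09e-07). Atf3, a stress-induced repressor chosen after its values were seen, fell by 0.70 ± 0.11 (edgeR adjusted p = 1.26e-05). The gene that rose was Nr4a1, an orphan nuclear receptor, with 14.7 to 42.3 CPM in the spleen and 6.36 to 22.1 CPM in the blood (0.96 ± 0.18, edgeR adjusted p = 0.000197). Its adjusted p over the alternatives ran from 2.61e-06 to 0.537, the highest among cells without a UMI of other cell types. Fos was lower still in marrow neutrophils, at a mean of 45.7 CPM.

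NF-kB and cytokine genes had no common direction. Of 23 tested, 5 were higher (21.7%) and 2 lower (8.70%), near the shares of all tested genes (18.4% and 8.39%). Their median of 0.03 was -0.04 with TMM factors. Il1rap, the accessory chain of the interleukin-1 receptor, ran from 677 to 863 CPM in the spleen (median 799.7) and from 455 to 654 CPM in the blood (median 571). It did not overlap and rose by 0.49 ± 0.04 (edgeR adjusted p = 1.85e-09), and marrow neutrophils held 98.2 CPM on average. Nfkb1, the p105 precursor of an NF-kB subunit, ran from 108 to 191 CPM in the spleen and from 73.5 to 97.3 CPM in the blood and rose by 0.50 ± 0.09 (edgeR adjusted p = 0.000102). The highest adjusted p of Nfkb1, in a range from 5.47e-07 to 0.131, came from cells without a UMI of other cell types. Tnfaip2, a gene induced by tumor necrosis factor, ran from 626 to 785 CPM in the spleen and from 881 to 1031 CPM in the blood and fell by 0.43 ± 0.04 without overlap (edgeR adjusted p = 6.61e-09). Il1b, the interleukin-1 beta gene, did not pass the test at 2052 to 2954 CPM in the spleen and 1828 to 3111 CPM in the blood (0.03 ± 0.04, edgeR adjusted p = 0.628). Il1b was named after its values were seen.

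Of 20 tested survival genes 5 rose (25% against 18.4% of all tested genes) and 1 fell (5% against 8.39%), with a median of 0.12. With DESeq2, 2 rose and 1 fell. Mcl1, the short-lived BCL2 protein on which neutrophils depend, ran from 1321 to 1651 CPM in the spleen (median 1449) and from 1700.1 to 1996 CPM in the blood (median 1890.1). The groups did not overlap and Mcl1 fell by 0.37 ± 0.03 (edgeR adjusted p = 4.32e-09), the gene of the list that fell. Birc3, an inhibitor of cell death downstream of tumor necrosis factor receptors, rose by 0.30 ± 0.06 (edgeR adjusted p = 0.000456), with 208 to 277 CPM in the spleen and 155 to 235 CPM in the blood. Tnfrsf1b, one of the receptors for tumor necrosis factor, rose by 0.33 ± 0.06 (edgeR adjusted p = 0.000346), with 143 to 198 CPM in the spleen and 116 to 165 CPM in the blood. Cflar, which blocks caspase activation at death receptors and was named after its values were seen, rose by 0.36 ± 0.09 in 7 of 8 hashtags (edgeR adjusted p = 0.00229), with a range of 0.000468 to 0.0963 over the alternatives and the highest value with DESeq2. Bcl2a1b, one of several nearly identical A1 genes whose reads cannot be assigned with certainty, rose by 0.81 ± 0.21 (edgeR adjusted p = 0.00521), and its adjusted p over the alternatives ran from 3.77e-05 to 0.13.

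Genes of costimulation and the PD-1 ligands had the highest median of the functional lists other than azurophil genes, at 0.32. Of 8 tested, 4 rose (50% against 18.4% of all tested genes) and none fell (against 8.39%). Cd80, a ligand of CD28 and CTLA4 on T cells, ran from 139 to 252 CPM in the spleen (median 176) and from 90.8 to 162 CPM in the blood (median 129.8), and rose by 0.50 ± 0.07 (edgeR adjusted p = 5.53e-06). Cd84, a SLAM family adhesion receptor, rose by 0.24 ± 0.05 (edgeR adjusted p = 0.000206), and its relative Cd244a rose by 0.46 ± 0.08 (edgeR adjusted p = 8.85e-05). Cd274, the gene of PD-L1 named after its values were seen, ran from 28.4 to 172 CPM in the spleen and from 23.8 to 120.2 CPM in the blood and rose by 0.48 ± 0.10 (edgeR adjusted p = 0.000556). All 8 hashtags were higher in the spleen for each of these genes, though the ranges overlapped. Without the pairing by hashtag, Cd244a had an adjusted p of 0.0644 in a range from 8.82e-13 over the alternatives, and Cd274 had 0.363 in a range from 3.89e-05.

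Interferon-stimulated genes did not move as a group: of 43 tested, 7 rose (16.3% against 18.4% of all tested genes) and 5 fell (11.6% against 8.39%). Their median of 0.10 was -0.01 with DESeq2. Trim30a, an interferon-induced regulator of Toll-like receptor signalling, ran from 348 to 715 CPM in the spleen and from 275 to 483 CPM in the blood and rose by 0.41 ± 0.05 (edgeR adjusted p = 4.17e-07). Its adjusted p over the alternatives ran from 7.11e-15 to 0.0525. Ifitm3, a membrane protein that blocks virus entry, fell by 0.15 ± 0.04 (edgeR adjusted p = 0.0052), with an adjusted p between 1.95e-05 and 0.788 over the alternatives. In both genes the highest value came without the pairing by hashtag. In the MHC class I list 1 of 18 tested genes rose, 3 fell, and the median of 0.01 was -0.05 with TMM factors. H2-D1, a classical class I heavy chain, ran from 1634 to 2548 CPM in the spleen (median 1951) and from 1934 to 3186 CPM in the blood (median 2478) and fell by 0.32 ± 0.03 (edgeR adjusted p = 4.02e-09). B2m, the light chain that pairs with it, rose by 0.26 ± 0.04 (edgeR adjusted p = 3.5e-06), and its adjusted p ran from 6.47e-10 to 0.211, the highest without the pairing.

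Genes of the gelatinase granules, made late in maturation, moved in both directions. Of 13 tested, 5 rose (38.5% against 18.4% of all tested genes) and 4 fell (30.8% against 8.39%), with a median of 0.09. Without the cells that stand apart, 4 of 12 tested rose and 4 fell. Mmp9, the gelatinase that degrades basement membrane collagen, ran from 1045 to 1604 CPM in the spleen (median 1083) and from 793 to 1231 CPM in the blood (median 859.7) and rose by 0.37 ± 0.03 in 8 of 8 hashtags (edgeR adjusted p = 6.88e-09). Hp, the hemoglobin scavenger haptoglobin stored in granules, ran from 1528 to 1903 CPM in the spleen (median 1745) and from 1873 to 2431 CPM in the blood (median 2225) and fell by 0.34 ± 0.03 (edgeR adjusted p = 7.49e-09). Among late neutrophil genes 2 of 16 rose and 5 fell, with a median of -0.10. Slpi, a protease inhibitor, ran from 2738 to 3771 CPM in the spleen (median 3312) and from 3262 to 4377 CPM in the blood (median 3814) and fell by 0.22 ± 0.03 (edgeR adjusted p = 7.18e-07). Wfdc21, a whey acidic protein family member, fell by 0.27 ± 0.04 (edgeR adjusted p = 1.22e-05, with a range of 4.48e-14 to 0.195 over the alternatives). In the specific granule and immature list, leaving out the genes of the rule, 3 of 19 rose and 5 fell, but none rose and 7 fell without the cells that stand apart. Hmgn2, a nucleosome-binding protein of immature cells, fell by 0.40 ± 0.06 (edgeR adjusted p = 2.79e-05), and Anxa1, an anti-inflammatory annexin, by 0.22 ± 0.04 (edgeR adjusted p = 0.000109, with a range of 6.39e-09 to 0.053).

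Cyba, the membrane subunit p22phox of the oxidase that makes the respiratory burst, ran from 1071 to 1182 CPM in the spleen (median 1091) and from 1274 to 1420 CPM in the blood (median 1345) and fell by 0.27 ± 0.03 (edgeR adjusted p = 6.86e-07). The groups did not overlap. Of 12 tested oxidative burst genes 2 rose and 3 fell, with a median of 0.03 that was -0.04 with TMM factors.

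In hypoxia and glycolysis 2 of 29 rose and 3 fell, with a median of 0.05 that was -0.02 with TMM factors. Eno1, the glycolytic enolase, ran from 103 to 207 CPM in the spleen (median 131) and from 159 to 326 CPM in the blood (median 192) and fell by 0.51 ± 0.07 (edgeR adjusted p = 2.46e-06). Slc2a3, a glucose transporter, fell by 0.26 ± 0.04 (edgeR adjusted p = 9.01e-05). Both ferritin chains fell, Ftl1 by 0.16 ± 0.03 in 8 of 8 hashtags (edgeR adjusted p = 6.38e-05) and Fth1 by 0.20 ± 0.03 in 7 of 8 (edgeR adjusted p = 8.47e-05). The adjusted p of Fth1 ran from 2.46e-13 to 0.0554 over the alternatives, the highest without the pairing. Of 13 tested iron and heme genes 3 rose and 3 fell, with a median of 0.13. In the leukotriene pathway, Alox5, the lipoxygenase, rose by 0.29 ± 0.06 (edgeR adjusted p = 0.000393), while its activating partner Alox5ap fell by 0.22 ± 0.03 (edgeR adjusted p = 4.63e-06), at 1519 to 1776 CPM in the spleen and 1749 to 2067 CPM in the blood. Acsl1, which activates long fatty acids, rose by 0.36 ± 0.08 (edgeR adjusted p = 0.000812), with a range of 1.75e-05 to 0.15 over the alternatives. Of 13 tested lipid genes 3 rose and 2 fell, with a median of 0.01 that was -0.07 with TMM factors.

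Among 26 tested transcription factors of granulocytes 8 rose (30.8% against 18.4% of all tested genes) and 5 fell (19.2% against 8.39%), with a median of 0.08. With DESeq2, 2 rose and 5 fell. Cebpd, a C/EBP factor of late granulocyte maturation, ran from 565 to 708 CPM in the spleen (median 618) and from 731 to 804 CPM in the blood (median 759) and fell by 0.29 ± 0.04 without overlap (edgeR adjusted p = 5.92e-06). Runx1, a regulator of blood cell development, ran from 200.2 to 312 CPM in the spleen (median 249) and from 138 to 286 CPM in the blood (median 187) and rose by 0.42 ± 0.08 (edgeR adjusted p = 0.000148). Heat shock and unfolded protein genes had 3 of 16 higher (18.8% against 18.4% of all tested genes) and 2 lower (12.5% against 8.39%). Their median of 0.16 was -0.01 without the cells that stand apart and with TMM factors. Dnajb9, a chaperone of the endoplasmic reticulum, ran from 33.7 to 61.1 CPM in the spleen and from 75.0 to 109.8 CPM in the blood and fell by 0.82 ± 0.10 without overlap (edgeR adjusted p = 4.83e-07). Hsp90aa1, a cytosolic chaperone, rose by 0.48 ± 0.12 (edgeR adjusted p = 0.00248), and its adjusted p over the alternatives ran from 9.96e-05 to 0.293. In the circadian clock list 1 of 5 tested genes rose and none fell, with a median of -0.03.

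**Figure D3:**
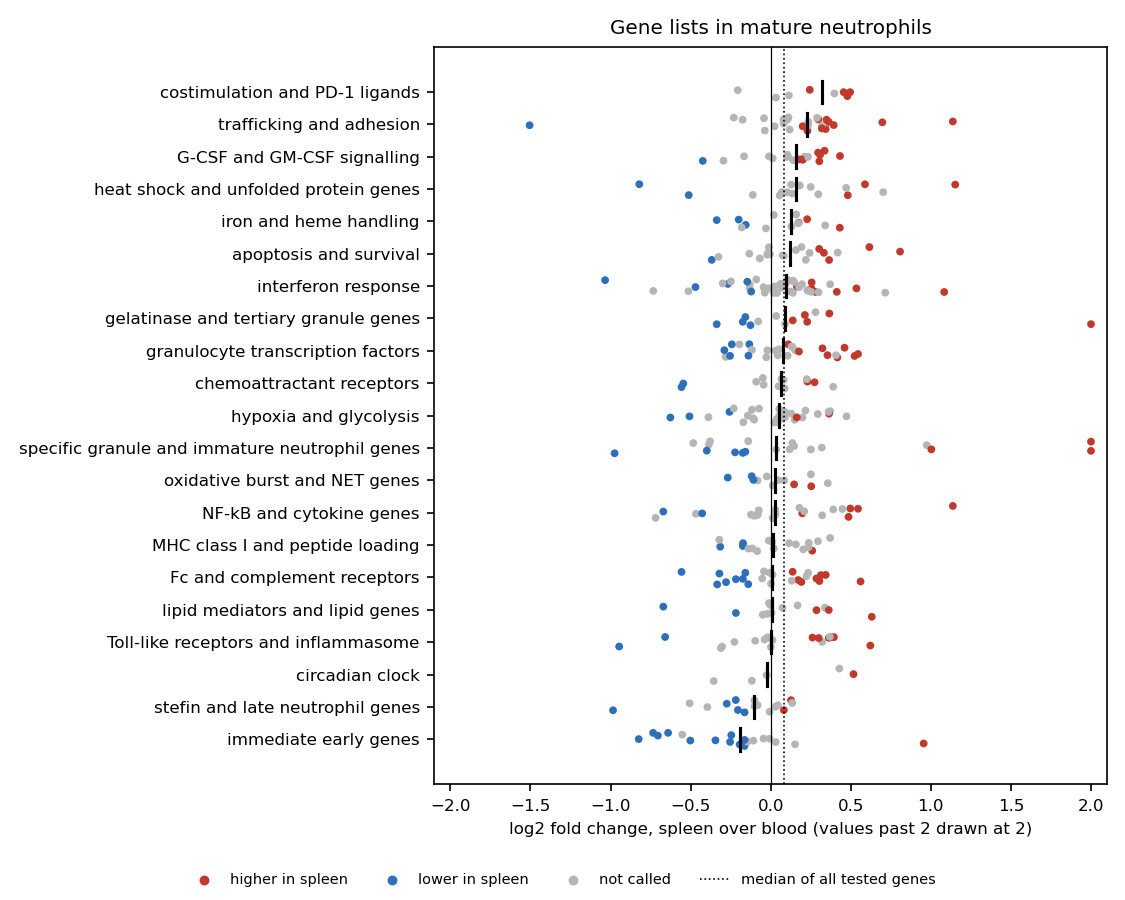
Log2 fold changes, spleen over blood, of the tested genes in each functional list except the azurophil list, with red points higher and blue points lower at an edgeR adjusted p under 0.05. Black bars are list medians, from 0.32 for costimulation and PD-1 ligands to -0.19 for immediate early genes, and the dotted line is the median of all tested genes, 0.09, with values past 2 drawn at 2.

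Larger fold changes were found among genes of at least 20 CPM outside the marker lists. Tgm2, a transglutaminase that crosslinks proteins, ran from 21.8 to 70.6 CPM in the spleen (median 51.6) and from 16.8 to 28.8 CPM in the blood (median 22.9) and rose by 1.08 ± 0.14 (edgeR adjusted p = 1.58e-06). Scai, a regulator of cell invasion, rose by 0.82 ± 0.13 (edgeR adjusted p = 2.6e-05), with 33.3 to 70.6 CPM in the spleen and 19.4 to 37.0 CPM in the blood. Dram2, a lysosomal membrane protein linked to autophagy, rose by 0.76 ± 0.12 (edgeR adjusted p = 3.73e-05), and Fam49a by 0.80 ± 0.18 (edgeR adjusted p = 0.00121). The fold changes of Dock10, Calr and Specc1 rested in part on the few cells that stand apart. Dock10, a guanine nucleotide exchange factor, rose by 1.21 ± 0.19 (edgeR adjusted p = 2.89e-05) in 6 of 8 hashtags, and by 0.78 without those cells. Calr, the chaperone calreticulin, ran from 36.0 to 137 CPM in the spleen, the highest in hashtag 6, and from 20.3 to 27.9 CPM in the blood, and rose by 1.15 ± 0.16 (edgeR adjusted p = 6.73e-06), or by 0.90 without them. Specc1 rose by 0.78 ± 0.21 (edgeR adjusted p = 0.00659), or by 0.50 without them. With cells thinned to 1000 UMIs, the adjusted p of Dock10 was 0.0641, that of Hdac1 0.145, that of Sntb1 0.161 and that of Phlpp1 0.111. The lowest values over the alternatives were 2.4e-10 for Dock10, 4.57e-05 for Hdac1, 0.000116 for Sntb1 and 0.000105 for Phlpp1. Xist, the RNA of the inactive X chromosome, rose by 0.77 ± 0.16 in these female mice (edgeR adjusted p = 0.000788, with a range of 1.45e-08 to 0.0651).

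The 12 genes that fell most did so without overlap between the tissues. They were chosen as the smallest fold changes of called genes, so the lack of overlap and their repeated calls follow in part from that choice. No share of genes without overlap over all tested genes is given beside them. Cmss1, a nucleolar protein gene, ran from 434 to 506 CPM in the spleen (median 473) and from 1387 to 1586 CPM in the blood (median 1559) and fell by 1.70 ± 0.04 (edgeR adjusted p = 6.56e-23). Filip1l lies over the same locus as Cmss1 and fell by 1.36 ± 0.12 (edgeR adjusted p = 1.32e-09), so reads of the pair may not be separable. Cdk8, the kinase of the Mediator complex, ran from 79.8 to 104 CPM in the spleen (median 88.8) and from 209 to 268 CPM in the blood (median 249) and fell by 1.45 ± 0.07 (edgeR adjusted p = 1.36e-14). Insyn2b ran from 16.8 to 32.3 CPM in the spleen and from 74.9 to 92.9 CPM in the blood and fell by 1.90 ± 0.12 (edgeR adjusted p = 4.54e-12). Epha1, an ephrin receptor, ran from 11 to 25.5 CPM in the spleen and from 54.7 to 77.9 CPM in the blood and fell by 1.77 ± 0.14 (edgeR adjusted p = 5.07e-10). Defb37, a beta-defensin gene, fell by 1.96 ± 0.20 (edgeR adjusted p = 4.53e-08). The others were Cc2d2a at -1.71, Fndc9 at -1.68, Lysmd4 at -1.47, Gcnt7 at -1.34, Far1os at -1.32 and Usp50 at -1.31 on the log2 scale. Without the cells that stand apart these 12 values ran from -1.94 for Defb37 to -1.29 for Far1os. All 12 were called in every alternative that gave a value.

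Some genes typical of other cell types, such as Igkc, Jchain, Hbb-bs and Pf4, differed between the tissues by far more than the genes above. Not all marker lists did: the median log2 fold change of monocyte and macrophage markers was 0.10, against 0.09 for all tested genes. Igkc, the kappa chain constant region made by B and plasma cells, ran from 144 to 219 CPM in the spleen (median 175) and from 0 to 1.26 CPM in the blood, a log2 fold change of 7.95 ± 0.18 (edgeR adjusted p = 3.37e-22). At least 1 UMI of Igkc was found in 39.4% of the spleen neutrophils (exact binomial interval 37.3 to 41.5) and in 0.194% of the blood neutrophils (0.0839 to 0.382), at like median depths. Jchain, which joins antibody units, had 148 UMIs in the spleen and 0 in the blood, at least 99.0-fold higher per UMI against a floor of 3 UMIs over the tissue. Ighm, the heavy chain of IgM, rose by 0.86 ± 0.08 (edgeR adjusted p = 3.49e-09), with 127 to 194 CPM in the spleen and 65.3 to 113 CPM in the blood. All 4 tested genes of the 16 B and plasma cell markers were higher, the list summed to 369 to 491 CPM in the spleen and 113 to 163 CPM in the blood.

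Hemoglobin and platelet RNA went the other way. Hbb-bs, an adult beta globin, ran from 0 to 4.21 CPM in the spleen and from 64.0 to 5970.5 CPM in the blood (-9.06 ± 0.18, edgeR adjusted p = 1.39e-23), and was found in 18 spleen cells and 782 blood cells. Without the cells that stand apart, chosen in part by hemoglobin RNA, the log2 fold change was -4.51. All 4 tested genes of the 12 erythroid markers were lower, with a summed level of 11.3 to 20.7 CPM in the spleen and 119 to 13475 CPM in the blood, or 9.96 to 22.7 and 114 to 151 CPM without those cells. Pf4, a platelet chemokine, had 0 UMIs in the spleen and 142 in the blood, at least 23.6-fold lower in the spleen against the same floor. Both tested platelet markers of 9 were lower, and the list summed to 1.09 to 8.41 CPM in the spleen and 11.5 to 68.3 CPM in the blood. Among cells without a UMI of other cell types, 634 (12.1%) of 5224 tested genes were higher and 258 (4.94%) lower in the spleen. These were 606 spleen and 1928 blood cells, against 2096 and 4118 members.

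MHC class II and azurophil genes rested partly on single cells. Genes of both kinds helped to define the cells that stand apart, so lower values without those cells follow in part from that choice. H2-Aa, a class II alpha chain, ran from 15.4 to 143 CPM in the spleen (median 32.8) and from 3.05 to 24.2 CPM in the blood (median 8.18) and rose by 2.35 ± 0.34 (edgeR adjusted p = 8.74e-06), or by 1.66 without the cells that stand apart. It was found in 136 spleen cells (6.49%, exact binomial interval 5.47 to 7.63) and 83 blood cells (2.02%, 1.61 to 2.49). The intervals cover counting error only and not the wide spread between hashtags given above. H2-Eb1 rose by 2.93 and by 2.09 without those cells, H2-Ab1 by 2.20 and 1.74, and Cd74, the invariant chain, by 1.5 and 0.50. Over the alternatives, the adjusted p of Cd74 ran from 7.66e-40 to 0.0683. Of 8 tested dendritic cell markers 4 were higher and 1 lower, and the list summed to 164 to 886 CPM in the spleen and 102 to 221 CPM in the blood, or 163 to 219.8 and 103 to 155 CPM without those cells, with Siglech at 0 in both. Elane, the neutrophil elastase of promyelocytes, had 1395 UMIs in the spleen and 0 in the blood, and its sum in hashtag 6 was 1494 CPM against a median of 3.60 CPM over the spleen sums. Spleen cells of that hashtag included 2 with 31925 and 41218 UMIs that carried most of it. With them, 8 of 9 tested azurophil genes and 6 of 7 tested progenitor markers were higher. Without the cells that stand apart, 2 of 2 azurophil genes were higher and none of 2 progenitor markers was higher.

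Of 11 tested monocyte and macrophage markers 3 were higher and 3 lower, and the list summed to 2155 to 3282 CPM in the spleen and 2227 to 3576 CPM in the blood, with C1qb at 0 in both. Among them Treml4 rose by 0.54 ± 0.12 (edgeR adjusted p = 0.00122), with 46.7 to 74.6 CPM in the spleen and 23.8 to 51.2 CPM in the blood, and Nr4a1, also an immediate early gene, by 0.96 ± 0.18 (edgeR adjusted p = 0.000197). Of 4 tested red pulp macrophage markers 2 were higher and none lower, at 789 to 954 CPM in the spleen and 741 to 853 CPM in the blood, with Cd163 and Cd5l at 0 in both. With TMM factors or DESeq2 none of the 4 was called. Of 3 tested T and NK cell markers 1 was higher, Nkg7, a granule protein gene of cytotoxic lymphocytes, with a log2 fold change of 2.85 ± 0.72 (edgeR adjusted p = 0.00442) although only 4 of 8 hashtags were higher. Its 110 UMIs in the spleen lay in 10 cells, 47 of them in 1 cell, and its 16 UMIs in the blood lay in 4 cells. Spleen hashtag 6 held the highest level, 102 CPM, and without that hashtag too few UMIs were left for the test. Its adjusted p ran from 7.9e-10 to 0.642 over the alternatives, the highest with DESeq2, and without the cells that stand apart its mean was 1.06 CPM in the spleen and 0.213 CPM in the blood, again too few to test. The T and NK list summed to 6.66 to 116 CPM in the spleen and 10.4 to 62.9 CPM in the blood. Of 9 basophil and mast cell markers 1 was tested. It rose by 0.14 (edgeR adjusted p = 0.00241), near the median of 0.09 over all tested genes, and was not called with TMM factors or DESeq2. Fcer1a, Cpa3, Prss34 and Cd200r3 of that list were at 0 in both tissues. The eosinophil (1 tested) and tumor, epithelial and stromal lists (2 tested) had no called gene.

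**Figure D4:**
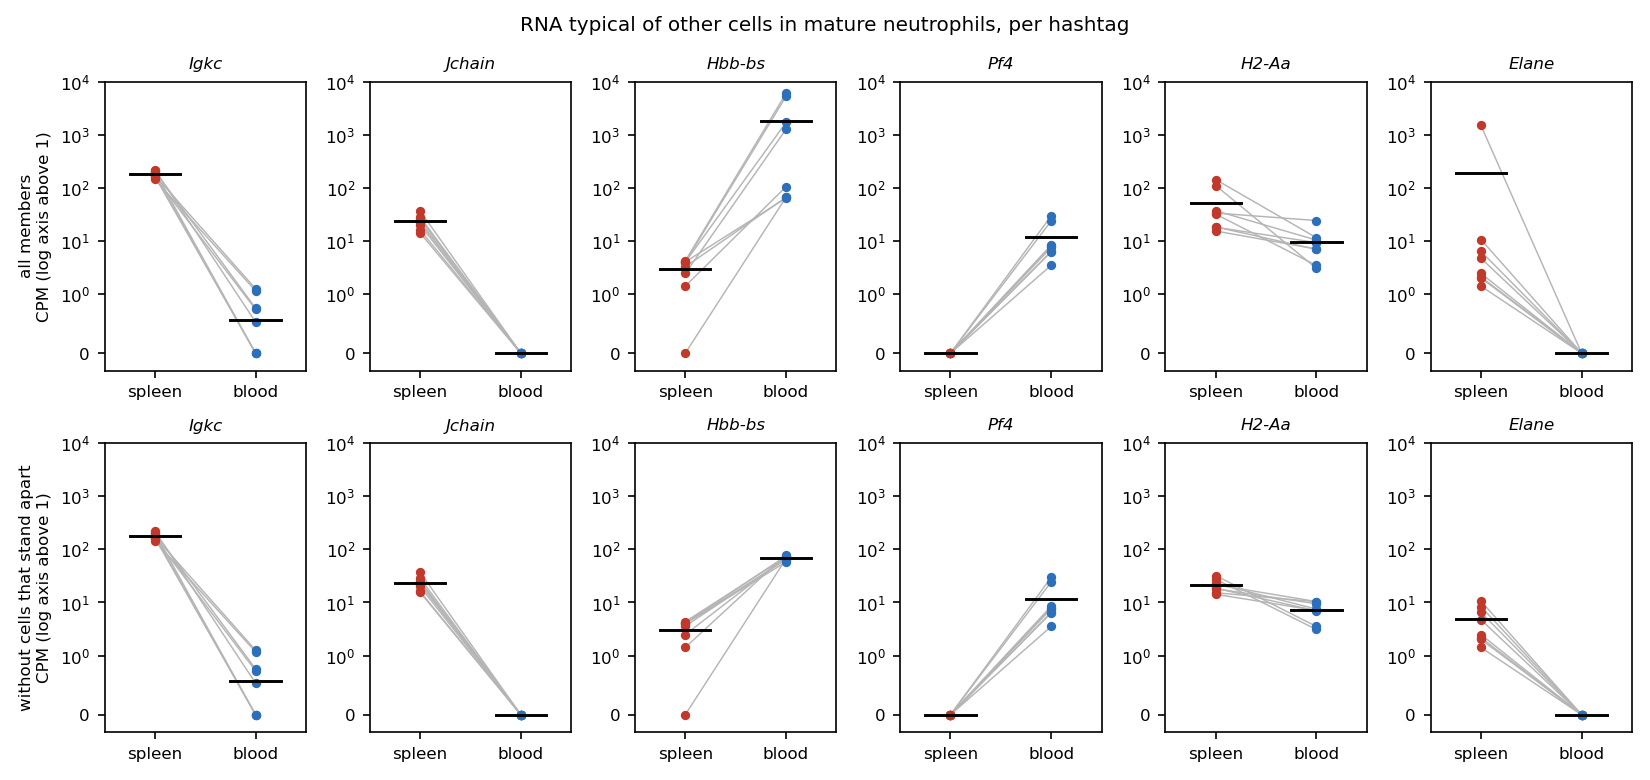
Level in CPM (log axis above 1) of 6 genes typical of other cells in the 8 spleen and 8 blood sums of mature neutrophils, with lines joining hashtag numbers and bars at the means. In the upper panels all members are kept and in the lower panels the 28 spleen cells and 35 blood cells that stand apart are left out. Hbb-bs in the blood and Elane in the spleen are lower there, which follows in part from the choice of those cells by hemoglobin, azurophil and MHC class II RNA. Igkc, Jchain and Pf4, which did not define those cells, stay in place.

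Transcripts of the mitochondrial genome were higher in the spleen, with 10 of 10 tested genes called and a median of 0.98, or 0.73 without the cells that stand apart. The cytochrome oxidase gene mt-Co3 ran from 185 to 529.8 CPM in the spleen (median 279.6) and from 129.6 to 190.1 CPM in the blood (median 161), rising by 0.86 ± 0.10 (edgeR adjusted p = 2.37e-07). The complex I gene mt-Nd2 rose by 1.70 ± 0.22 (edgeR adjusted p = 2.09e-06), and both were named after their values were seen. The median mitochondrial share per cell was 0.0811% in the spleen and 0.0611% in the blood. Ribosomal protein genes had no stable direction: 34 of 79 rose and 7 fell with a median of 0.19, against 16 higher, 24 lower and a median of -0.05 without the cells that stand apart.

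Surface antibodies gave a second readout of the same cells. Of 18 antibodies, 11 (61.1%) made up a larger and 1 (5.56%) a smaller share of a cell sum's antibody counts in the spleen, by an exact sign-flip permutation test over the 8 hashtag pairs, two-sided, with p-values adjusted over the 18. The smallest p that 8 pairs allow is 0.0078125, or 0.0141 after adjustment here. A median spleen cell held 1405 antibody counts and a median blood cell 1786, so shares and counts per cell need not move alike.

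MHCII showed the largest difference. It ran from 0.506% to 0.998% of antibody counts in the spleen (median 0.706%) and from 0.0274% to 0.0543% in the blood (median 0.0410%), without overlap. The mean log2 difference was 4.14 (SD 0.31 over the 8 pairs, adjusted p = 0.0141 by the exact permutation test), or 10.8 ± 1.98 counts per cell in the spleen and 0.769 ± 0.157 in the blood (SD over hashtags). Marrow neutrophils lay between them at 6.64 counts per cell. At least 1 MHCII count was found on 94.3% of spleen cells (median 5 counts) and 30.1% of blood cells. RNA of H2-Aa was found in only 6.49% and 2.02% of them, and the cause of this gap was not tested. CD106, the protein of Vcam1, ran from 0.0348% to 0.0753% in the spleen and from 0.00179% to 0.00663% in the blood, a log2 difference of 3.80 (SD 0.61, exact permutation adjusted p = 0.0141), but its mean was only 0.700 counts per spleen cell and 0.0688 per blood cell. Vcam1 RNA had 7 UMIs in the spleen and 0 in the blood, so its RNA was at the limit of detection where the antibody differed.

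Other antibodies of low counts differed too: ckit by 2.47, CD69 by 2.22 and CCR2 by 2.09 in log2 share, each without overlap (exact permutation adjusted p = 0.0141), and CD64 by 2.82 in 7 of 8 hashtags (exact permutation adjusted p = 0.0234). Their means lay at or below 1 count per cell in both tissues, for example 0.357 in the spleen and 0.105 in the blood for CD69. The RNA of these proteins was sparse: Cd69 had 30 UMIs in the spleen and 109 in the blood (-0.79 ± 0.34, edgeR adjusted p = 0.0878), Fcgr1, the gene of CD64, had 2 and 15, and Kit had 19 and 17. Ccr2 RNA was lower in the spleen (-1.51 ± 0.44, edgeR adjusted p = 0.0113), but not in a comparison that kept cells with Csf1r UMIs, where its adjusted p was the highest of a range from 0.00156 to 0.517.

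Among antibodies with more counts, CD1632, which binds the Fc gamma receptors CD16 and CD32, ran from 1.05% to 1.39% in the spleen (median 1.16%) and from 0.584% to 0.861% in the blood (median 0.740%). It did not overlap, with a log2 difference of 0.74 (SD 0.25, exact permutation adjusted p = 0.0141) and 18.1 ± 2.0 counts per cell in the spleen and 13.6 ± 1.20 in the blood. Fcgr3 RNA rose by 0.14 ± 0.04 (edgeR adjusted p = 0.0232), but its adjusted p ran from 0.00434 to 0.59 over the alternatives. CD49d, the protein of Itga4, ran from 0.502% to 0.667% in the spleen (median 0.560%) and from 0.320% to 0.555% in the blood (median 0.369%), a log2 difference of 0.57 (SD 0.19, exact permutation adjusted p = 0.0141). CD14 differed by 0.91 without overlap and CD115 by 0.76 (exact permutation adjusted p = 0.0141 for each). With a centred log ratio, another scaling, the sign of these 4 turned, to -0.42 for CD1632, -0.59 for CD49d, -0.24 for CD14 and -0.39 for CD115. As shares, CD49d and its RNA Itga4 were both higher in the spleen.

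CD44 was the antibody that was lower. It took from 54.0% to 65.5% of the counts in the spleen (median 59.5%) and from 62.6% to 67.8% in the blood (median 64.0%), a log2 difference of -0.12 (SD 0.07, exact permutation adjusted p = 0.0234, lower in 7 of 8 hashtags). Its RNA rose by 0.32 ± 0.03 in the spleen (edgeR adjusted p = 7.93e-08), so RNA and antibody had opposite signs. CXCR2 (-0.01, SD 0.16), CD11b (0.00, SD 0.29), CD11a (-0.05, SD 0.16), Ly6C (0.01, SD 0.21), CD24 (0.01, SD 0.55) and CXCR4 (0.25, SD 0.57) did not pass the test as shares, with exact permutation adjusted p from 0.335 to 0.984, although Cxcr2, Itgam and Itgal RNA were higher. As counts per cell, CXCR2 held 11 ± 0.829 in the spleen and 13.9 ± 0.666 in the blood. For Ly6C and CD24, Ly6c2 RNA did not pass the test (0.32 ± 0.18, edgeR adjusted p = 0.212), and Cd24a rose by 0.18 ± 0.06 (edgeR adjusted p = 0.0285), with a range of 0.0139 to 0.507 over the alternatives. CXCR2 and CD11a passed as lower, in 8 of 8 hashtags, under each of the other scalings. Their log2 differences were -1.17 and -1.21 with the centred log ratio, -0.35 and -0.40 as the mean of log2(count + 1) per cell, and -0.33 and -0.37 as unscaled counts per cell (exact permutation adjusted p from 0.0128 to 0.0176). The centred log ratio also turned Ly6C (-1.15), CD11b (-1.16), CD24 (-1.14) and CXCR4 (-0.91), and Ly6C was lower as unscaled counts per cell too (-0.32).

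**Figure D5:**
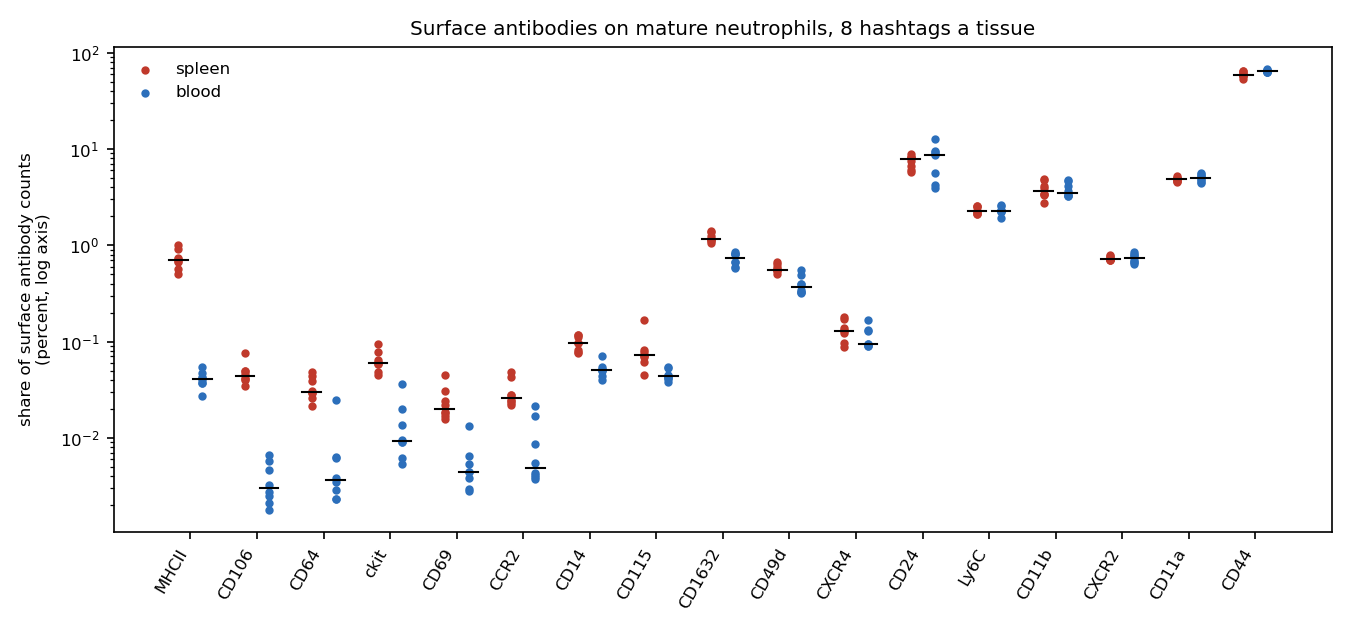
Share of surface antibody counts in percent, on a log axis, for the antibodies described, in mature neutrophils of the spleen (red) and the blood (blue), with 1 point per hashtag and bars at the medians. MHCII and CD106 stand furthest apart, at medians of 0.706% and 0.0441% in the spleen against 0.0410% and 0.00299% in the blood, while CXCR2 and CD11b overlap.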

How the data were processed

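RNA and antibody tags of cells from spleen and blood were analysed as unique molecular identifier counts, which the authors deposited unnormalized in 1 table. Per the file headers and the submitters' processing notes, Cell Ranger 7.0.1 and the mm10 build were used. Members and gene lists were chosen with earlier results of these data known. Counts of a tissue and hashtag (count at least 20 and at least 3 times the next) were summed and tested with edgeR 4.0.16 (R 4.3.3, limma 3.58.1), with total UMIs as library sizes, at least 100 UMIs over the 16 sums, the hashtag number as a block, and Benjamini-Hochberg adjustment over all tested genes. Sums were paired by hashtag number as planned, and deviations of same-numbered sums correlated at 0.35 to 0.70. Each was above the highest correlation of that spleen sum with a blood sum of another number, but barely for hashtag 4 (0.5395 against 0.5394) and hashtag 7 (0.5248 against 0.5245). These correlations cannot show that a number marks the same mouse in both tissues. The labels say that hashtags mark mice without giving the hashtag of each mouse. Antibody shares were tested with exact two-sided sign-flip permutation tests (NumPy 2.4.6). Named genes were the 12 largest and 12 smallest fold changes of called genes of at least 20 CPM outside marker, ribosomal, mitochondrial, hemoglobin, immunoglobulin and unnamed genes, the 3 lowest p-values of each list, the defining markers and the antibodies' genes; exceptions are stated. On simulated data of 7053 genes, 45.5% of log2 changes of 0.5 and 89.7% of changes of 1.0 were called, with 4 false calls among 6857 unchanged genes. The simulation had no differences between hashtags and few changed genes, balanced in direction, so these rates need not hold for the real data. Alternatives were TMM factors, DESeq2 1.42.0, no pairing, other count minimums and cell filters, thinned cells and each hashtag left out. No doublet caller was run, and cells without a single hashtag call were left out. Intervals cover counting error only. Depth per sum is given in the report, and bone marrow gives levels only. A few genes and 1 antibody are not reported here.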

Additional observations from a re-analysis of the deposited data

Results flagged for a closer look

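Within the 8 sums of a tissue, 37 of 250 groups checked (14.8%) had 1 sum far from the other 7. The limit used gives about 1 in 20 for independent normal values. Sums of few UMIs and genes chosen for their changes need not behave so, and no excess is read from the share. The values are listed without an explanation, in CPM for genes.

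Hashtag 6 of the spleen was far above the others for Elane (1494), Mpo (450.3), Calr (137), Hsp90aa1 (123), mt-Co3 (529.8), Nkg7 (102) and Ly6c2 (327), and for the CD115 antibody (0.168% of counts). In hashtag 4 of the spleen, Nfkb1 (191), Atf3 (82.0), Sntb1 (65.2), Specc1 (73.6) and Hba-a1 (6.31) were high, while Dnajb9 (33.7) and Gcnt7 (4.21) were low. Hashtag 5 was high for Mmp9 in the spleen (1604) and in the blood (1231), for Il1b (2954) and Cd244a (457) in the spleen and for Eno1 in the blood (326), and low for Fcgr3 in the blood (336). In the spleen, Itgal (835) and Alox5 (339) were high in hashtag 7, Il1rap (677) was low in hashtag 1, and Hdac1 (17.8) was low and Cc2d2a (20.1) high in hashtag 8. Blood hashtag 8 was low for Atf3 (43.2), and blood hashtag 7 high for Nkg7 (6.98).

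Hashtag 3 of the blood was high for H2-Eb1 (15.8), H2-Aa (24.2), H2-Ab1 (27.9) and Cd74 (76.4), and hashtag 3 of the spleen for the CD106 antibody (0.0753%). Blood hashtag 4 was high for the antibodies ckit (0.0362%), CD69 (0.0134%), CD64 (0.0245%) and CD14 (0.0706%).

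The table also held hashtags 9 and 10, which no comparison used. Hashtag 9 had 4 counts in blood neutrophils, and hashtag 10 had 50 in spleen neutrophils and 55 in blood neutrophils, above the limit that a count of 0 allows.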

How the results depend on the processing

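Against 1319 genes higher in the spleen, 870 were called with TMM factors, 465 with DESeq2, 828 with no replicate block (no pairing by hashtag), 802 in cells thinned to 1000 UMIs, 634 in cells without UMIs of other cell types, and 624 with DESeq2 without the cells that stand apart. Against 600 genes lower, 326 were called with a minimum of 1000 UMIs, 330 in thinned cells, 258 in cells without UMIs of other cell types, and 923 with TMM factors without the cells that stand apart. The tests covered 7155 genes in the main setting, 2543 with a minimum of 1000 UMIs and 4890 in thinned cells. Cells without UMIs of other cell types gave 5224 genes, from 606 spleen and 1928 blood cells against 2096 and 4118. Counts over unlike numbers of genes and cells do not compare directly. Leaving out 1 hashtag gave 1131 to 1359 genes higher and 484 to 622 lower. Of 107 genes named in the text, 103 were called, 73 kept their call in every alternative with a value and 30 lost it in at least 1; none changed sign with a call. The alternatives on cells that stand apart and on Csf1r were chosen after seeing the data.

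Of the antibodies, 11 were higher and 1 lower. A centred log ratio gave 6 higher and 10 lower and, of the antibodies described, turned CD115 (-0.39), Ly6C (-1.15), CD11b (-1.16), CD49d (-0.59), CD1632 (-0.42), CD24 (-1.14), CD14 (-0.24) and CXCR4 (-0.91). The mean of log2(count + 1) per cell and unscaled counts per cell each gave 4 lower, with Ly6C at -0.31 and -0.32. The cause of these changes was not tested. Depth limits genes of few UMIs: a count of 0 allows 0.479 CPM in the spleen and 0.239 CPM in the blood.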
